A study of Mus musculus with 14 samples.

Results

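The nuclear genes for mitochondrial ribosomal proteins were examined in the cerebral cortex of control and Fmr1 knock-out (KO) mice. All genes whose symbol began with Mrpl or Mrps followed by a number were taken from the table of counts, which gave 76 of 23412 genes. Of these, 47 carried the Mrpl name of the large subunit and 29 the Mrps name of the small subunit. All mice carried a Cre recombinase driven by CamK and a floxed Rpl22 allele (Rpl22flox/flox;CamKCre+), so the control group also had this background. KO mice carried Fmr1X-Y in addition. Fmr1 encodes FMRP, an RNA-binding protein that associates with neuronal mRNAs and ribosomes. RNA-seq of ribosomal RNA-depleted total RNA was made from mice 1, 3, 6 and 8 (control) and mice 2, 4, 5 and 7 (KO). Footprint libraries were made from mice 1, 9 and 3 (control) and mice 2, 10 and 4 (KO), and values are listed in these orders throughout. Mice 1 to 4 were in both assays. The ages of the mice are not given in the sources used here.

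The mitochondrial ribosome translates the few proteins encoded by mitochondrial DNA, which are subunits of the respiratory chain and ATP synthase. Its RNAs come from mitochondrial DNA, whereas all of its proteins are encoded in the nucleus, made by cytosolic ribosomes and imported. Ribosome profiling sequences mRNA fragments that ribosomes protect from nuclease (footprints). The footprints counted here therefore report cytosolic ribosomes on these mRNAs and not the activity of the mitochondrial ribosome itself. The speed of elongation was not measured, so a footprint count is not a rate of protein synthesis. Transcripts of mitochondrial DNA were not analysed here.

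RNA libraries held between 8847547 and 11371851 counts, and footprint libraries between 4124065 and 6033030. Levels are given as CPM, counts scaled to a common library size. As a check of the labels, Fmr1 RNA averaged 82.9 CPM (SD 8.36, n = 4) in control libraries and 21.7 CPM (SD 2.40, n = 4) in KO libraries, and its footprints averaged 113 CPM (SD 1.99, n = 3) and 7.44 CPM (SD 1.43, n = 3). The RNA libraries were not evenly spaced. KO mice 2, 4 and 7 differed from each other by a chi-square of 1.18 to 1.32 per degree of freedom, where 1 would be counting noise, and control mice 1 and 3 by 1.99. The other RNA pairs of one genotype lay between 4.03 and 11.8, the widest involving control mouse 8. Footprint pairs of one genotype lay between 1.203 and 1.46. RNA results are therefore also given with the close libraries summed (KO mice 2, 4 and 7 as one library, control mice 1 and 3 as another) and without single mice. P-values measure the spread between these libraries only.

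Marker genes of 8 cell classes were summed in each library. The 6 excitatory neuron markers summed to 2065 to 2344 CPM in control RNA and 2647 to 2942 CPM in KO RNA, and to 4399 to 4506 CPM and 4146 to 4279 CPM in footprints. The 6 oligodendrocyte markers summed to 4884 to 5327 CPM in control RNA and 4267 to 4594 CPM in KO RNA, and to 8194 to 8353 CPM and 8007 to 8049 CPM in footprints. None of these 12 genes was at 0 in all libraries of a group. Both sums separated the genotypes in both assays, although single markers went both ways. The directions differed for excitatory neurons, whose sum in KO mice was higher in RNA (24.7%) and lower in footprints (-5.35%). The oligodendrocyte sum was lower in both (-11.9% and -2.91%). In footprints 3 of 6 estimates were above 0 in each list, and in RNA 4 of 6 for excitatory neurons and 1 of 6 for oligodendrocytes. The 6 inhibitory neuron markers (1621 to 1667 CPM in control and 1694 to 1721 CPM in KO mice) and the 6 choroid plexus markers (12.8 to 15.1 and 5.69 to 11.2 CPM, with 1 gene at 0) also separated the genotypes in footprints, and not in RNA. The part of these differences in the results below was not tested. In bulk tissue, fewer cells of a type and less RNA per cell cannot be told apart.

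Promoter windows are shown for Mrps18c, Mrpl33 and Mrpl52, which are 3 of the 6 genes called higher in footprints and in the ratio and were picked as examples after their values were seen, and for Mrpl12, the one gene called higher in RNA. The windows run from 250 bases before to 50 bases after the RefSeq start (assembly GRCm38.p6), 5′ to 3′ on the plus strand, which is the coding strand of all 4. Capitals mark exact matches on either strand. The ETS-type motif searched was CCGGAAG. The NRF1-type motif searched was GCATGCG. The YY1-type motif searched was AAGATGG. The E-box was searched as CACGTG and the GC box as GGGCGG. ETS factors of the GABP type, NRF1 and YY1 are known regulators of nuclear genes for mitochondrial proteins.
Mrps18c (chr5:100798509-100798808): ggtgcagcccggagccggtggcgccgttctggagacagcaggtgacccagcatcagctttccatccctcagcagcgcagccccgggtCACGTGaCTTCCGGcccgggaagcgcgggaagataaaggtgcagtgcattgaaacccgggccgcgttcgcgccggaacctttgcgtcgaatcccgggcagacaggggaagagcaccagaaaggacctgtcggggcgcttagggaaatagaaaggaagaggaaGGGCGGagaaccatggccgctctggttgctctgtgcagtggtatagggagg
Mrpl33 (chr5:31613701-31614000): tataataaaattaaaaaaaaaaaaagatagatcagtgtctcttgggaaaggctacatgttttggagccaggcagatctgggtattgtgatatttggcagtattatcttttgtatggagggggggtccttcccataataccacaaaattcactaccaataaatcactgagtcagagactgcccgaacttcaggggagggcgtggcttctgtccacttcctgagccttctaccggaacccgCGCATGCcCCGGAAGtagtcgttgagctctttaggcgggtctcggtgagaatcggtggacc
Mrpl52 (chr14:54426659-54426958): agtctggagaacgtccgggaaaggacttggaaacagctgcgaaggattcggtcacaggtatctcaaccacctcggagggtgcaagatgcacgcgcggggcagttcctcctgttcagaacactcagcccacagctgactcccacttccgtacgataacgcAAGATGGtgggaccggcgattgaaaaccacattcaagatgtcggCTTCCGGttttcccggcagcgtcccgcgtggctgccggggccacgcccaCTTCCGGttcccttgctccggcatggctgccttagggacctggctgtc
Mrpl12 (chr11:120484387-120484686): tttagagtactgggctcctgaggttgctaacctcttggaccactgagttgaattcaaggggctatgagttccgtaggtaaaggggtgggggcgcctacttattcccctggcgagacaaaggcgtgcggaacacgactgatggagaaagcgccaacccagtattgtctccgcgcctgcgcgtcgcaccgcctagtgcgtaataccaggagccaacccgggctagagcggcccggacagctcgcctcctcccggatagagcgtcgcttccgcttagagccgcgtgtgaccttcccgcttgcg

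The Mrpl12 window held none of the 7 motifs searched, which also included TGACGT (the core of a CRE) and the CArG box. A window was found for 67 of the 76 genes. The ETS-type motif was present in 24 of these 67 windows (35.8%), against 12.9% of 17491 protein-coding genes with a window of the same length. The printed examples with this motif do not stand for all called genes, since it was in 6 of the 10 windows of genes called higher in the ratio and 8 of the 18 of genes called higher in footprints. The YY1-type motif was present in 13 (19.4%, against 7.18% of all) and the NRF1-type motif in 8 (11.9%, against 4.95%). The other motifs differed less from all genes. The GC box was in 33 windows (49.3%, against 49.2%), the CRE core in 8 (11.9%, against 9.60%), the E-box in 5 (7.46%, against 8.91%) and the CArG box, which serum response factor binds, in 0 (against 1.76%). These are matches of letters within the windows and not tested binding sites.

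The first comparison asked how the mRNA levels of the group differed between genotypes. The summed level over the 76 genes was 2386, 2345, 2439 and 2533 CPM in the control mice and 2293, 2297, 2275 and 2293 CPM in the KO mice. Every KO library lay below every control library, and the relative difference of the means was -5.61% (2426 ± 81.2 in controls and 2290 ± 9.78 in KO mice, SD, n = 4 each). Of the single genes, edgeR's quasi-likelihood test called 6 lower and 1 higher in KO mice at an adjusted p under 0.05. Among all 13507 genes tested, 7.41% were called, 3.88% lower and 3.53% higher, against 7.89% lower and 1.32% higher among the 76. At an unadjusted p under 0.05 there were 21 of the 76, against 23.3% of all genes. The fitted log2 fold change was below 0 in 58 of the 76 genes. It was above 0 in 18 of them, against 49.8% of all genes, and the median was -0.096 beside -0.001 for all genes. The median was -0.061 without mouse 8 and -0.051 in mice 1 to 4 alone. With the close libraries summed, edgeR called 0 of the 76 genes (13 at an unadjusted p under 0.05, 12 of them lower) and 0.263% of all genes. Libraries did not overlap between genotypes in 16 genes that were lower and 2 that were higher in KO mice, against 7.97% and 7.1% of all genes.

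**Figure D1:**
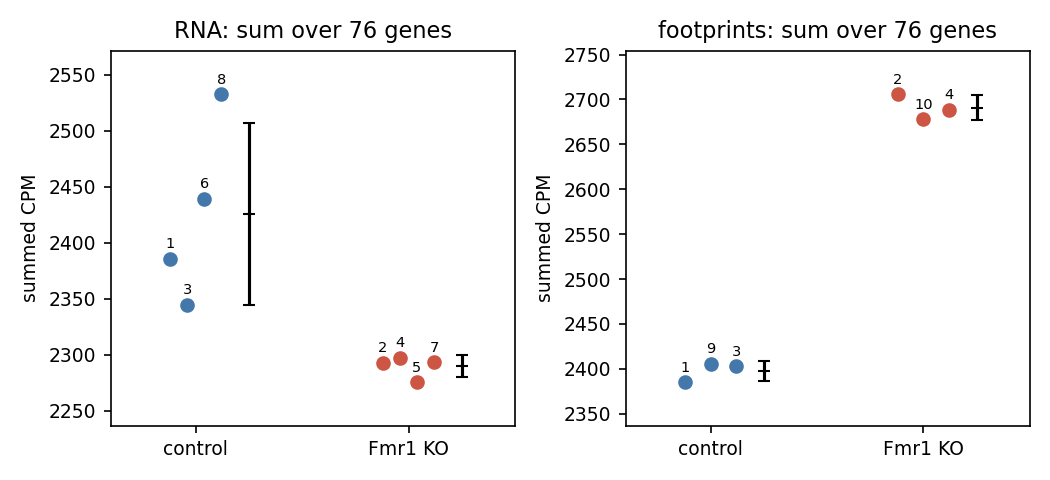
Summed CPM of the 76 genes in each library (points, with the mouse number) for RNA on the left and footprints on the right, with the mean and SD beside each group; the axes do not start at 0. The RNA sums of the KO mice (2275 to 2297 CPM) lie below those of the controls (2345 to 2533 CPM), and the footprint sums of the KO mice (2678 to 2706 CPM) lie above those of the controls (2385 to 2406 CPM).

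Mrps18c encodes one of 3 mammalian relatives of the bacterial protein S18 and sits in the small subunit. Its RNA was at 53.7, 50.8, 52.1 and 46.6 CPM in control mice and 37.4, 37.1, 36.4 and 36.4 CPM in KO mice. All KO libraries were lower than all control libraries (log2 fold change -0.46 ± 0.069, SE, adjusted p = 0.00169, edgeR). The other small-subunit genes called lower were Mrps21, the counterpart of bacterial S21, and Mrps33, a protein with no bacterial counterpart. Mrps21 RNA was at 42.4, 45.9, 50.9 and 52.9 CPM in controls and 34.8, 32.1, 38.3 and 34.6 CPM in KO mice, again without overlap (-0.46 ± 0.085, SE, adjusted p = 0.00638, edgeR). Mrps33 RNA was at 11.0, 10.2, 13.7 and 12.3 CPM in controls and 7.81, 7.66, 9.99 and 7.81 CPM in KO mice (-0.51 ± 0.13, SE, adjusted p = 0.0298, edgeR). KO mouse 5 was the highest of the KO group for Mrps33 but still below the lowest control.

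In the large subunit, Mrpl55, Mrpl14 and Mrpl52 were called lower. Mrpl55 RNA was at 28.9, 26.8, 29.1 and 27.2 CPM in controls and 21.7, 22.8, 21.4 and 20.9 CPM in KO mice (-0.37 ± 0.073, SE, adjusted p = 0.00935, edgeR). Mrpl14, the counterpart of the universal protein L14, was at 14, 13.8, 14.7 and 12.6 CPM and 10.8, 11.3, 10.3 and 10.3 CPM (-0.36 ± 0.099, SE, adjusted p = 0.0398, edgeR). Mrpl52, a mitochondria-specific protein, was at 27.8, 25, 26.7 and 29.2 CPM and 21.3, 22.2, 24.4 and 21.6 CPM (-0.28 ± 0.080, SE, adjusted p = 0.0450, edgeR). None of the 3 genes had a KO library inside the control range. With the close libraries summed, the fold changes of Mrps18c, Mrps21 and Mrpl55 were then -0.46, -0.46 and -0.37 (adjusted p = 0.104, 0.149 and 0.208, edgeR). In mice 5 to 8 alone, where edgeR called 0.652% of all genes, the 1 gene of the group called was Mrps21. The count of lower calls went from 6 to 3 without mouse 1, 2, 4, 6 or 7. Lower calls among all genes went from 524 to 261, 200, 185, 275 and 201 without these mice. The calls of Mrps33, Mrpl14 and Mrpl52 were lost without each of these mice, that of Mrpl14 also without mouse 3 and that of Mrpl52 also without mouse 8. DESeq2 did not call Mrpl14 or Mrpl52, and Mrps33 and Mrpl52 were not called in the exon columns. The title prefix, the first part of a library title, was shared by RNA mice 1 and 2, by mice 3 and 4 and by mice 5 to 8. Each footprint prefix was shared by a control and a KO library. With the title prefix as a block, the calls of Mrpl14 (adjusted p = 0.0575, edgeR) and Mrpl52 (adjusted p = 0.0606, edgeR) were lost. Both were also lost in mice 1 to 4 alone (adjusted p = 0.0871 and 0.0537, edgeR), and Mrpl52 without the filter on low counts (adjusted p = 0.0524, edgeR).

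Mrpl12 was the one gene of the group called higher in RNA. It encodes the stalk protein that contacts the translation factors of the mitochondrial ribosome. Its RNA was at 23.3, 22.2, 26.0 and 40.2 CPM in controls and 46.4, 42.5, 35.2 and 44.0 CPM in KO mice (0.59 ± 0.15, SE, adjusted p = 0.0324, edgeR). Control mouse 8 lay above KO mouse 5, so the groups overlapped. The same mice stood out for Fos, an immediate early gene, at 16.2, 16.8, 14.7 and 34.9 CPM in controls and 96.4, 100.06, 35.3 and 97.4 CPM in KO mice. The 6 choroid plexus markers summed to 282 CPM in control mouse 8 and 120 CPM in KO mouse 5, against 6.71 to 20.5 CPM in the other RNA libraries. The part of these differences in the Mrpl12 result was not tested. Fos footprints were at 31.4, 32.3 and 28.0 CPM in control mice and 209, 222 and 220 CPM in KO mice, without overlap. Footprints of Arc, another immediate early gene, averaged 83.6 CPM in control mice and 564 CPM in KO mice. Every footprint library thus carried this difference, and its part in the footprint and ratio results was not tested. The Mrpl12 call was lost without mouse 1, 2, 3, 4, 6 or 7, in mice 5 to 8 alone (0.26, adjusted p = 0.556, edgeR) and with the close libraries summed (0.45, adjusted p = 0.403, edgeR), and over all alternatives its fold change ran from 0.26 to 0.97. Among the remaining stalk proteins, Mrpl10 (-0.01 ± 0.084, SE) and Mrpl11 (-0.16 ± 0.084, SE) were not called (adjusted p = 0.974 and 0.261, edgeR).

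The second comparison asked how many footprints these mRNAs held in each genotype. The summed footprint level was 2385, 2406 and 2403 CPM in control mice and 2706, 2678 and 2689 CPM in KO mice. All KO libraries were higher than all control libraries, and the KO mean was 12.2% higher (2398 ± 11.3 in controls and 2691 ± 14.05 in KO mice, SD, n = 3 each). Without Mrpl12 the relative difference of the summed means was 12% in footprints and -6.26% in RNA. The two-sided edgeR fit tested 74 genes, because Mrpl23 and Mrps36 had 4 and 16 footprint counts over all libraries and did not pass the filter on low counts. Of the 74, 24 (32.4%) were called higher and 0 lower, against 11.9% higher and 13.6% lower (25.5% in all) among 12158 genes tested. DESeq2 called 10 of them higher at an adjusted p under 0.05, with 6.28% of all genes called higher. At an unadjusted p under 0.05, where edgeR placed 35.4% of all genes, it gave 32 higher and 0 lower, DESeq2 22 and 0, and limma voom 31 and 2. The fitted fold change was above 0 in 60 of 74 genes (50.9% of all genes), with a median of 0.17 beside 0.005 for all genes. Libraries did not overlap in 38 genes that were higher and 1 that was lower, against 18.1% and 19.2% of all genes.

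**Figure D2:**
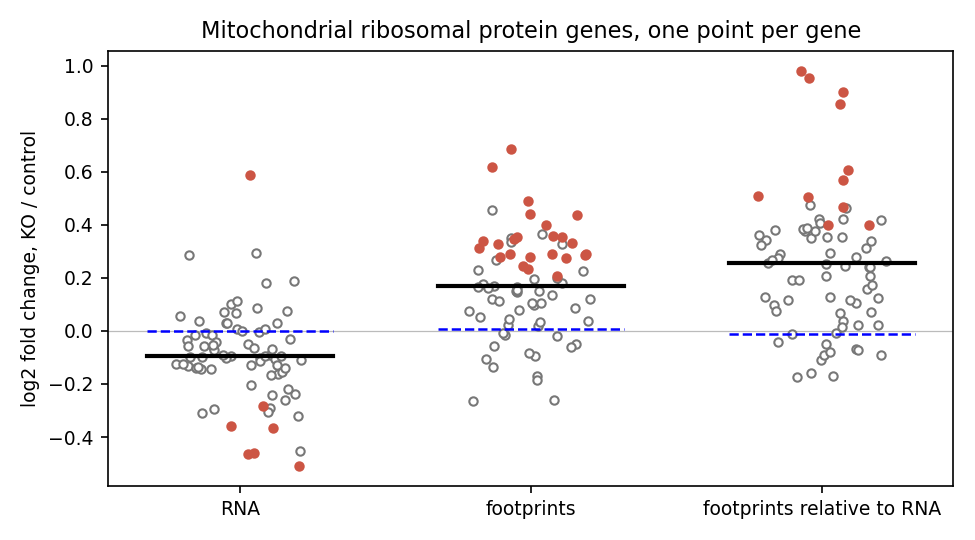
Fitted log2 fold changes (KO over control) of the single genes in RNA (76 genes), footprints (74) and footprints relative to RNA (74). Filled points passed an adjusted p of 0.05 in edgeR, black lines are the medians of the group (-0.096, 0.17 and 0.25) and blue dashed lines the medians of all genes tested, which lie near 0.

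Mrpl48 and Mrpl33 showed the largest footprint changes. Mrpl48, a mitochondria-specific protein of the central protuberance at the top of the large subunit, was at 9.21, 9.39 and 10.9 CPM in control footprints and 14, 17.6 and 15.9 CPM in KO footprints (0.68 ± 0.16, SE, adjusted p = 0.000592, edgeR). Mrpl33, a small protein with a bacterial counterpart, was at 27.4, 23.4 and 22.6 CPM and 36.5, 42.1 and 32.5 CPM (0.62 ± 0.11, SE, adjusted p = 3.17e-06, edgeR). Neither gene overlapped between genotypes. An exact permutation test gave p = 0.1 for each, the smallest value it can reach with these group sizes. Mrpl36, whose bacterial relative binds zinc, was at 31.2, 30.1 and 26.8 CPM and 42.5, 40.2 and 40.3 CPM (0.49 ± 0.099, SE, adjusted p = 4.74e-05, edgeR). Mrpl34, another small bacterial-type protein, was at 16.5, 20.2 and 17.6 CPM and 24.0, 24.7 and 25.5 CPM (0.44 ± 0.13, SE, adjusted p = 0.00479, edgeR). In both genes the lowest KO library exceeded the highest control library.

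Mrpl12 footprints were also higher, at 22.2, 24.1 and 23.4 CPM in controls and 29.9, 33.9 and 30.7 CPM in KO mice (0.44 ± 0.11, SE, adjusted p = 0.00140, edgeR). The 3 control libraries stayed within 2 CPM of each other, and no alternative removed this call. Mrps18c footprints were at 21.0, 17.2 and 19.0 CPM in controls and 25.6, 23.9 and 25.5 CPM in KO mice (0.40 ± 0.12, SE, adjusted p = 0.0102, edgeR), a call lost without mouse 9 (adjusted p = 0.0660, edgeR) and in DESeq2 (adjusted p = 0.0839). Mrps18c thus had fewer RNA counts and more footprints in KO mice, without overlap in either assay. The next largest changes among called genes were in Mrpl28 (0.36), Mrpl54 (0.35), Mrpl46 (0.35) and Mrpl24 (0.35). Mrpl46 is another protein of the central protuberance and Mrpl24 lies near the exit of the peptide tunnel. The call of Mrpl54 was lost without mouse 1, 2, 3, 4 or 9, that of Mrpl46 without mouse 1, 9 or 10, that of Mrpl28 without mouse 10 and that of Mrpl24 without mouse 2. DESeq2 did not call Mrpl54 or Mrpl46, and Mrpl54 was also lost without the filter on low counts (adjusted p = 0.0617, edgeR) and with limma voom (adjusted p = 0.0539).

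Genes with distinct roles in the ribosome varied. Mrps12, a protein of the decoding centre, had footprints at 30.9, 31.0 and 27.0 CPM in controls and 34.2, 36.4 and 40.5 CPM in KO mice (0.33 ± 0.10, SE, adjusted p = 0.0101, edgeR), a call lost without mouse 3 or 4 and in DESeq2. Mrpl45, which anchors the ribosome to the inner membrane at the tunnel exit, had a fold change of 0.22 ± 0.11 (SE, adjusted p = 0.129, edgeR). Mrps30, which despite its name is a large-subunit protein, had 0.14 ± 0.096 (SE, adjusted p = 0.320, edgeR). Mrpl10 (0.12) and Mrpl11 (-0.06) were not called either (adjusted p = 0.321 and 0.636, edgeR). Mrps36, now known as a component of the 2-oxoglutarate dehydrogenase complex and not of the ribosome, was measured in RNA only (-0.45 ± 0.17, SE, adjusted p = 0.1245, edgeR). The 3 S18 relatives differed in their estimates. Beside Mrps18c, footprints of Mrps18a, placed in the large subunit, and Mrps18b had fold changes of 0.04 ± 0.098 and 0.02 ± 0.12 (SE, adjusted p = 0.837 and 0.921, edgeR), and the differences between the 3 genes were not tested.

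Genes of both names contributed to the footprint calls. Of the genes with the Mrpl name 17 of 46 tested were called higher, with a median of 0.18, and of those with the Mrps name, which include Mrps30 and Mrps18a, 7 of 28, with a median of 0.16. The summed footprints of the Mrpl genes were 12.8% and those of the Mrps genes 11.1% higher in KO mice. Proteins with a bacterial counterpart (14 of 46 called higher, median 0.17) and mitochondria-specific proteins (10 of 28, median 0.17) each included called genes. Mrps28 was counted as mitochondria-specific, although newer names relate it to a bacterial protein. Against 11.9% of all genes, 4 of 7 genes around the central protuberance were called higher (median 0.29), and 1 of 7 around the tunnel exit (14.3%, median 0.16), a share near that of all genes. No test of a difference between these subgroups was made.

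The third comparison set footprints against RNA in one model, where the interaction of genotype and assay gives the change in footprints per mRNA, often called translational efficiency. It uses the same libraries as both comparisons above and is not separate evidence. The ratio was called higher in KO mice for 11 of 74 genes (14.9%) and lower for 0, against 3.4% higher and 4.41% lower (7.81% in all) among 12145 genes tested. At an unadjusted p under 0.05, where edgeR placed 23.1% of all genes, it gave 34 higher and 0 lower, DESeq2 29 and 0, and limma voom 35 and 1. The estimate was above 0 in 61 of 74 genes (48.2% of all genes), with a median of 0.25 beside -0.011 for all genes. In 44 of the 74 genes (59.5%) the RNA estimate was below 0 and the footprint estimate above 0, against 21.8% of all genes. Of the 11 genes, 5 (Mrpl52, Mrpl55, Mrps18c, Mrps21 and Mrps33) had also been called lower in RNA, which was 83.3% of the lower RNA calls and 45.5% of the ratio calls. A further 4 (Mrpl13, Mrpl33, Mrpl36 and Mrpl48) had been called higher in footprints but not in RNA, as the plot of both fold changes shows.

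**Figure D3:**
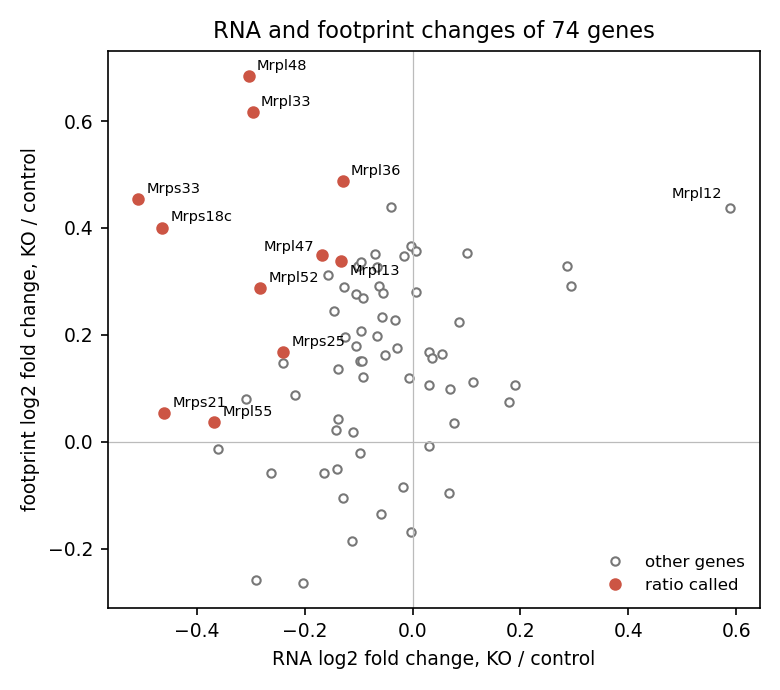
RNA log2 fold change (KO over control, horizontal) against footprint log2 fold change (vertical) for the 74 genes tested in both assays, one point per gene. Filled points were called in the ratio; 44 of 74 genes lie in the upper left quadrant, and Mrpl12 stands alone at the right, at 0.59 in RNA and 0.44 in footprints.

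The largest ratio changes were in Mrpl48 (0.98 ± 0.18, SE, adjusted p = 0.00143, edgeR), Mrps33 (0.95 ± 0.22, SE, adjusted p = 0.00904, edgeR), Mrpl33 (0.90 ± 0.16, SE, adjusted p = 0.00123, edgeR) and Mrps18c (0.85 ± 0.13, SE, adjusted p = 0.000217, edgeR). Mrpl48 RNA was at 47.0, 41.6, 51.2 and 55.5 CPM in controls and 39.3, 37.0, 40.3 and 41.7 CPM in KO mice (-0.30 ± 0.088, SE, adjusted p = 0.0501, edgeR). Mrpl33 RNA was at 24.8, 26.1, 20.8 and 19.8 CPM and 18.9, 18.6, 17.7 and 19.2 CPM (-0.30 ± 0.098, SE, adjusted p = 0.0805, edgeR). Mrps33 footprints were at 10.1, 7.62 and 8.99 CPM and 10.2, 13.2 and 12.8 CPM (0.45 ± 0.18, SE, adjusted p = 0.0516, edgeR). In each of these 3 genes RNA was lower and footprints were higher in KO mice by estimate, with one of the assays short of the threshold. Mrpl48, Mrpl33 and Mrps18c were called in the ratio under all 20 alternatives, and Mrps33 was lost without mouse 4 and in fits limited to or blocked by the mice of both assays, and had no adjusted p in DESeq2.

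**Figure D4:**
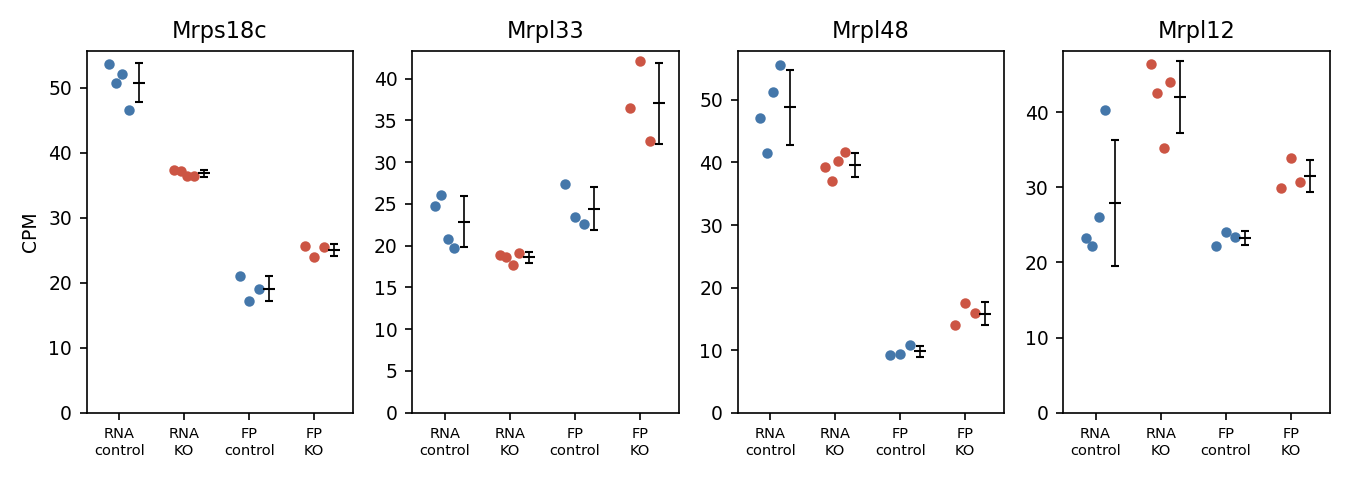
CPM of Mrps18c, Mrpl33, Mrpl48 and Mrpl12 in each library (points) with the mean and SD beside each group, for RNA and footprints (FP) of control and KO mice; each axis starts at 0 and has its own scale. Mrps18c shows non-overlapping groups in both assays in opposite directions, and Mrpl12 shows higher KO values in both, with overlap in RNA through control mouse 8 (40.2 CPM) and KO mouse 5 (35.2 CPM).

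The remaining ratio calls were smaller. They were Mrpl36 (0.61), Mrpl52 (0.57), Mrpl47 (0.51), Mrps21 (0.51), Mrpl13 (0.47), Mrpl55 (0.40) and Mrps25 (0.40). Mrpl47 lies at the tunnel exit, and Mrps25 is a mitochondria-specific small-subunit protein. For Mrps21 and Mrpl55 the footprint estimates were small (0.05 ± 0.11 and 0.04 ± 0.092, SE, adjusted p = 0.783 and 0.817, edgeR), and most of the ratio estimate lay in RNA. For Mrpl36 and Mrpl13 the RNA estimate was -0.13 in each, and the footprint estimates were 0.49 and 0.34. Leaving out single mice ended the call of Mrpl13 (mouse 2 or 4), Mrpl52 (1, 2 or 10), Mrpl36 (2, 3, 6, 9 or 10), Mrpl47 (1, 3, 4, 7, 9 or 10), Mrps21 (2, 4, 6, 7, 9 or 10), Mrpl55 (1, 2, 3, 4, 6 or 7) and Mrps25 (1, 2, 3, 4, 7, 9 or 10). With the title prefix as a block, the calls of Mrpl36 (adjusted p = 0.0597, edgeR) and Mrpl55 (adjusted p = 0.0766, edgeR) were lost. DESeq2 did not call Mrpl47 (adjusted p = 0.0556) or Mrpl55 (adjusted p = 0.0574), and Mrpl55 was not called without the filter on low counts (adjusted p = 0.0609, edgeR). With the close libraries summed, Mrpl52, Mrpl47, Mrps21, Mrpl13, Mrpl55 and Mrps25 were not called (adjusted p between 0.059 and 0.114, edgeR). Mrpl12, which was called higher in both assays, had a ratio estimate of -0.16 ± 0.23 (SE, adjusted p = 0.729, edgeR). With the mouse as a block the Mrpl12 ratio was called lower (-0.57, adjusted p = 0.00878, edgeR), and the calls of Mrps33, Mrpl36, Mrpl47 and Mrps21 were lost, as was that of Mrps25, although the block gave 12 higher calls, where 6.54% of all genes were called higher (14.9% in both directions). The count of higher calls went from 11 to 5 without mouse 2 or mouse 4, to 6 without mouse 10 and to 7 without mouse 3, rose to 17 without mouse 5, and was 5 with the close libraries summed. The share of all genes called higher also moved, from 3.4% to 1.46%, 1.47%, 2.29% and 2.46% without mouse 2, 4, 10 or 3. It was 4.89% without mouse 5 and 1.69% with the close libraries summed. On plain library sizes, without TMM scaling, the median footprint change of all genes rose from 0.005 to 0.065 and 66.3% of all footprint calls were higher, against 46.7% with TMM. The corresponding shares of ratio calls were 67.6% and 43.5%.

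In control mice the footprint level relative to RNA varied widely across the group. The log2 ratio of mean footprint CPM to mean RNA CPM had a median of 0.058 (interquartile range -0.446 to 0.378) over 74 genes, against -0.133 over 12145 genes. Cytosolic ribosomal protein genes had a median of -3.38 over the 42 of 87 genes that passed the filters of both assays. In RNA alone 81 were tested, and the cause of their low footprint counts was not tested. The lowest ratios in the group belonged to Mrpl48 (-2.31), Mrpl30 (-1.72) and Mrpl51 (-1.44), and the highest to Mrps6 (2.01), Mrps14 (1.01) and Mrpl17 (0.99). Mrps6 RNA was at 14, 11.3, 10.6 and 12 CPM in controls and its footprints at 43.7, 48.4 and 52.9 CPM. Neither end moved as one with genotype. Mrpl48 was called higher in the ratio, whereas Mrpl30 (0.31), Mrpl51 (-0.08), Mrps6 (-0.04), Mrps14 (-0.01) and Mrpl17 (0.21) were not.

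**Figure D5:**
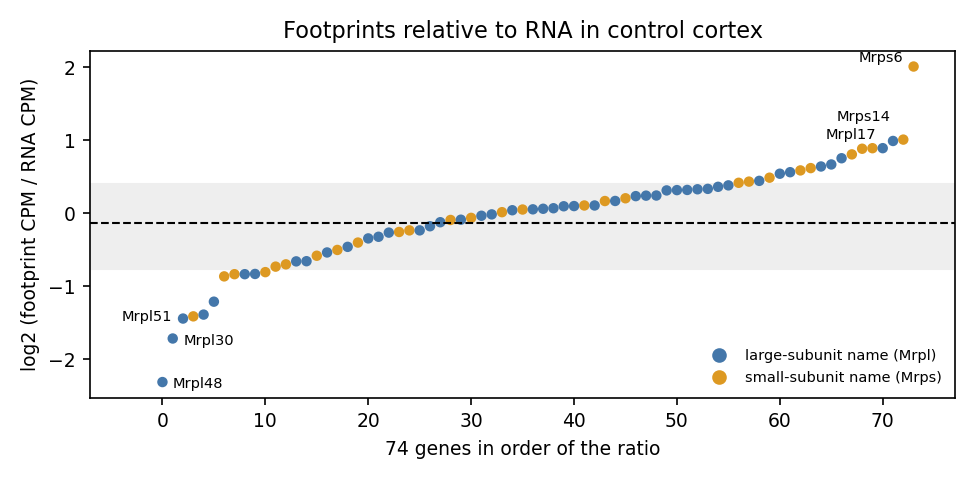
Log2 ratio of mean footprint CPM to mean RNA CPM in control mice (vertical) for the 74 genes in rising order, coloured by subunit name. The dashed line and grey band give the median (-0.133) and interquartile range of all 12145 genes; Mrpl48 (-2.31) and Mrps6 (2.01) are the extremes.

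Other genes of mitochondrial translation were read from the same fits, in which 3.88% of all genes were called lower in RNA and 11.9% higher in footprints. Of 7 mitochondrial ribosomal proteins with other names, Gadd45gip1 was called lower in RNA (-0.35 ± 0.073, SE, adjusted p = 0.0118, edgeR) and higher in the ratio (0.35), and Aurkaip1 was called higher in footprints (0.23). All 7 footprint and ratio estimates were above 0. Ict1, the rescue factor built into the large subunit, was among the genes not called. Of 15 translation factors and regulators, 4 were called higher in footprints, namely the release factors Mtrf1 (0.66) and Mtrf1l (0.49) and the initiation factors Mtif2 (0.43) and Mtif3 (0.32). Tsfm, the mitochondrial elongation factor Ts, and Slirp, an RNA stability factor, were called lower in RNA (-0.43 and -0.28). With the close libraries summed, the RNA calls of Gadd45gip1, Tsfm and Slirp were lost.

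Assembly factors, mitochondrial DNA expression genes and import genes were read in the same way. Of 22 assembly factors tested in footprints, Rpusd4, a pseudouridine synthase that modifies mitochondrial ribosomal RNA, was called higher (0.82 ± 0.20, SE, adjusted p = 0.000653, edgeR). Afg3l2, a subunit of the inner-membrane protease that processes Mrpl32, was called higher in RNA (0.57 ± 0.059, SE, adjusted p = 0.000307, edgeR) and lower in the ratio (-0.53), and its RNA call was kept with the close libraries summed. Mrpl32 itself was not called in RNA (-0.11), footprints (0.02) or the ratio (0.12). Of 10 genes of mitochondrial DNA maintenance and transcription tested in footprints, Tfam, which packages that DNA, was called higher (0.27). These shares (4.55% of the assembly factors and 10% of the DNA expression genes) were not above the 11.9% of all genes called higher. Of 15 import and mass genes tested in footprints, 4 were called higher, led by the import receptor Tomm20 (0.44), and the chaperone gene Hspa9 was called lower (-0.26).

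The 2 largest related groups are given for comparison, beside all genes at 3.88% lower and 3.53% higher in RNA, 11.9% higher and 13.6% lower in footprints and 3.4% higher and 4.41% lower in the ratio. Of 76 nuclear respiratory chain and ATP synthase genes, 18 were called lower and 2 higher in RNA, and of 69 tested, 38 were higher and 4 lower in footprints and 27 higher and 0 lower in the ratio (median 0.23, edgeR). Of the cytosolic ribosomal protein genes, 38 of 81 were called lower and 0 higher in RNA, and of 42 tested, 16 were higher and 1 lower in footprints and 21 higher and 0 lower in the ratio (median 0.37). The median ratio change of the mitochondrial ribosomal protein genes (0.25) lay between these 2 medians. With the close libraries summed, the RNA fit called 0 of the respiratory chain and ATP synthase genes and 2 of the cytosolic ribosomal protein genes, both lower. No test of the difference between groups was made.

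Some counts are uncertain. In RefSeq the spans of 19 of the 76 genes overlap another protein-coding gene, among them Mrpl48 (with Rab6a), Mrpl14 (Tmem63b), Mrpl24 (Rrnad1), Mrps25 (Nr2c2) and Mrps6 (Slc5a3), and the strand setting of the counting is not given. RefSeq also lists 6 pseudogenes named after members of the group, with which reads could be shared.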

How the data were processed

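RNA-seq (8 libraries) and ribosome profiling (6 libraries) of mouse cortex were analysed. The deposited table holds raw whole-number counts by gene, with no normalization, as the authors made them. The submitters' processing notes name Bowtie2, STAR 2.5, featureCounts and Subread 1.4.6 and the builds mm9 and mm10, with no roles. The annotation, strand setting and region counted are not given in the sources used here. Each RNA library has a pair of columns. The one without a suffix was used, because it has values for the same genes as the footprints (2849 genes have none in either), and the one marked exon (totals of 16351772 to 20793293) was an alternative. The table's 14 main columns were matched to samples by the library titles, whose labels also give the genotype and the mouse.

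KO and control counts were compared within each assay in edgeR 4.0.16 (R 4.3.3) by its quasi-likelihood method, two-sided, with TMM scaling, filterByExpr at a minimum count of 10 and no covariates. The ratio of footprints to RNA was the interaction of genotype and assay over all 14 libraries. Fits covered all genes, p-values were adjusted over all of them by Benjamini and Hochberg's method, and an adjusted p under 0.05 is a call. CPM uses TMM factors. CPM is not divided by gene length, so levels are not compared between genes, and coding lengths were not used here. Alternatives were RLE or plain library sizes, no filter, DESeq2 1.42.0, limma voom with library weights (limma 3.58.1, called limma voom elsewhere), the exon columns, blocks by title prefix or mouse, subsets of mice, summed close libraries and each mouse left out. The scripts were tested on simulated data.

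Genes and lists were chosen with earlier results of these data known. Genes named are the called members, up to 10 in a direction by fold change (Mrps25, the eleventh ratio call, is named beyond this rule, after its values were seen, as are Mrpl32 and members of overlapping gene pairs), members with a distinct role, the 3 highest and 3 lowest control ratios, and up to 4 called genes per direction of each other list. Mice 1 to 4 gave both RNA and footprints, so the mouse pairs the assays by the labels. Across 12054 control and 12044 KO genes, the deviations of the same mouse's libraries from their group means correlated between -0.0095 and 0.037, so the pairing left little trace in the values. Promoter windows and gene spans came from RefSeq (GRCm38.p6), in which all 76 symbols were found.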

Additional observations from a re-analysis of the deposited data

Results flagged for a closer look

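The groups of 4 RNA libraries were checked for the summed level and for part of the named genes. These were the called members (up to 10 in a direction) and the members with a distinct role. Of 52 such groups, 1 had a library far from the others, while chance alone gives about 1 in 20. For Mrps33 RNA in KO mice, mouse 5 was highest at 9.99 CPM and the other 3 lay between 7.66 and 7.81 CPM, so that the gap was 0.938 of the range, above Dixon's critical value for 4 samples. Without mouse 5 the Mrps33 call in RNA was kept. Genes named for other reasons, such as Mrps25, Mrpl30 and Fos, were not among the 52 groups. For Mrpl30 RNA, control mouse 8 lay apart at 82.3 CPM, with the other controls at 71.7 to 73.4 CPM. For Fos, mice 8 and 5 stood out as given above.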

How the results depend on the processing

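Among the called results of mitochondrial ribosomal protein genes rerun under each alternative, no fold change turned its direction. Named genes of the other lists were not rerun gene by gene. For RNA, the higher calls (1) became 3 with limma voom with library weights, 2 in the exon columns, 4 in mice 1 to 4 alone and 0 in mice 5 to 8 alone or with close libraries summed, and 0 to 3 with a mouse left out. The share of all genes called was 19.9% with limma voom, 24.1% in mice 1 to 4 alone and 2.62% to 13.0% with a mouse left out, against 7.41%. The lower calls (6) became 12 with limma voom, 1 in mice 5 to 8 alone, 0 with close libraries summed and 3 to 8 with a mouse left out. DESeq2 gave 1 higher and 5 lower. The RNA median (-0.096) was -0.051 in mice 1 to 4 alone, -0.061 without mouse 8 and down to -0.101 with another mouse left out. For footprints, the 24 higher calls became 10 with DESeq2, all among the 24 (6.28% of all genes called higher, against 11.9%). The count was 16 to 18 with a mouse left out, where 9.38% to 10.5% of all genes were called higher. The footprint median (0.167) was 0.227 on plain library sizes and 0.176 to 0.194 with a mouse left out. For the ratio, the 11 higher calls became 22 on plain library sizes, 21 with limma voom and 17 in the exon columns (5.96%, 6.7% and 4.07% of all genes called higher, against 3.4%). All 11 were among the calls of these 3 alternatives. The count was 5 with close libraries summed and 5 to 17 with a mouse left out, where 1.69% and 1.46% to 4.89% of all genes were called higher. The ratio median (0.254) was 0.319 on plain library sizes. With the mouse as a replicate block, the ratio gave 12 higher and 1 lower calls and a median of 0.221, where 6.54% of all genes were called higher and 14.9% in all, and 6 of its 13 calls were among the 11. In mice 1 to 4 alone 1 gene, Mrpl12, was also lower. The cause of these shifts was not tested, but leaving out libraries or summing them reduces the number of samples.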
